A study of Mus musculus with 12 samples.

Results

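Cardiac fibroblasts of aged mice were compared with cardiac fibroblasts of adult mice, both carrying the LacZ control vector. The comparison rests on 4 of the 12 libraries of the study. The 2 aged LacZ libraries hold RNA of wild-type primary fibroblasts from hearts of mice aged 18 months, and the 2 adult LacZ libraries hold RNA of wild-type primary fibroblasts from hearts of mice aged 3 months. Libraries were chosen by the age and treatment fields of their labels. All 16383 genes of the deposited table were considered, and 11940 of them had enough counts to be tested.

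The study asked why fibroblasts of older animals turn less readily into induced cardiomyocytes, and LacZ cells show the starting cell without the reprogramming factors. The same ages were also sequenced with vectors for Mef2c, Gata4 and Tbx5 (MGT), in 2 aged MGT and 2 adult MGT libraries, which share no library with the LacZ comparison. Neonatal LacZ libraries, from pups of postnatal days 1 to 3, served to place a gene on the earlier step of age, and neonatal MGT libraries appear only in the plot of list sums. All cells were collected on day 3, and all groups share the wild-type genotype. Strain, sex, the number of animals, the passage of the cells and the kind of vector were not given in the sources used here. Nothing in the labels tells separate animals or cultures from repeat libraries of shared RNA, and the p-values therefore cover the spread among the libraries sequenced, which may be technical. Age and cell preparation cannot be told apart.

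Column sums were 14907462 and 13879198 counts in the aged LacZ libraries, against 13648531 and 15200619 in the adult LacZ libraries. Levels are given in CPM, counts scaled to a common library total with TMM factors. The adult LacZ libraries stood further apart than any other pair of replicates, with 21.6 for the chi-square of their counts over its degrees of freedom, against 4.15 in the aged LacZ pair. Their log2 ratio followed exon length, with a Spearman rho of 0.598 over 9341 genes, so that long genes were higher in adult LacZ replicate 1 and short genes in adult LacZ replicate 2. In the aged LacZ pair the same rho was -0.21. The aged over adult change had a rho of 0.136 with exon length, and 0.324 without adult LacZ replicate 1 or -0.107 without adult LacZ replicate 2. Values with exon length corrected, or with a library left out, are therefore given beside a list or gene where they change a call or move a count or median by more than 1.5 times.

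The LacZ cells carried the defining genes of cardiac fibroblasts at both ages. Pdgfra, the receptor that marks heart fibroblasts, measured 608 and 686 CPM in aged LacZ cells, against 962 and 873 CPM in adult LacZ cells. Tcf21, a transcription factor of cardiac fibroblasts, measured 78.5 and 90.5 CPM in aged cells and 178 and 183 CPM in adult cells. Markers of lymphocytes summed to at most 1.41 CPM in each LacZ library of the 2 ages, with Cd3d, Cd3e and Cd3g at 0 counts in all 4. Erythroid markers summed to at most 0.703 CPM. The 21 macrophage markers of the table summed to 235 and 216 CPM in aged cells and 218 and 213 CPM in adult cells, with Ccr2 at 0 counts in all 4 libraries. Endothelial markers other than the shared gene Eng were low, and Pecam1 measured 1.68 and 2.35 CPM in aged cells and 2.36 and 3.04 CPM in adult cells. The cardiomyocyte list summed to 596 and 579.5 CPM in aged cells and 530 and 469 CPM in adult cells. Nearly all of that sum was Atp2a2, a calcium pump, with 588 and 574 CPM in aged cells and 524 and 464 CPM in adult cells, while the myocyte genes Myh6, Myl7 and Pln were at or near 0 at both ages.

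Smooth muscle and pericyte markers moved with age. Their sum was 2362 and 2132 CPM in aged LacZ cells, against 1142 and 1192 CPM in adult LacZ cells, and 6 of the 12 tested were higher and 1 lower at an adjusted p below 0.05 (2 lower without adult LacZ replicate 2). Over all tested genes 13.1% were higher and 14.0% lower. Most of the smooth muscle sum was Acta2, with 2171 and 1948 CPM in aged cells and 995 and 1069 CPM in adult cells. The list median was 0.21 (0.07 to 0.15 with single LacZ libraries left out), and Acta2 also stands on the myofibroblast list. The pericyte genes Rgs5, Kcnj8, Vtn and Higd1b stayed below 1 CPM in all 4 libraries. Cspg4, a pericyte proteoglycan of the same list, was higher in aged cells, as given with the myofibroblast genes. Epicardial and mesothelial markers summed to 766 and 842 CPM in aged cells and 1523 and 1313 CPM in adult cells, with 3 of 14 tested higher and 4 lower (1 higher without adult LacZ replicate 1 or aged LacZ replicate 2). Most of that sum came from C3 and Aldh1a2, while the mesothelial genes Upk3b, Wt1 and Krt8 lay below 2 CPM in all 4 libraries. In bulk RNA, a change in the share of cells of a type and a change in RNA per cell cannot be told apart.

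Interferons are secreted proteins that warn cells of infection. Type I interferon binds a receptor of Ifnar1 and Ifnar2, the kinases Jak1 and Tyk2 then activate a complex that includes Stat2 and Irf9, and it binds a short DNA element in the promoters of interferon-stimulated genes. Fibroblasts keep such genes at a basal level through low tonic signalling, and senescent fibroblasts of many tissues are known for raised interferon genes, inflammatory secretion and a stable cell cycle arrest through Cdkn1a and Cdkn2a. Hypoxia-inducible factors form another sensor system in fibroblasts: when oxygen or prolyl hydroxylase activity is low, Hif1a or Epas1 pairs with Arnt and raises genes of glycolysis.

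Aged LacZ cells differed from adult LacZ cells in 3232 of 11940 tested genes, 27.1% of all, at an adjusted p below 0.05 in edgeR's quasi-likelihood test. Of these, 1560 genes (13.1% of all tested) were higher and 1672 (14.0%) were lower in aged cells. These shares are the background for every list count under LacZ that follows. Changes of at least 2-fold were less balanced, with 198 genes higher (1.66%) and 497 lower (4.16%). The count changed when an aged or an adult LacZ library was left out. The set of genes called changed too, also where the count itself stayed close. With the spread estimated from the 4 compared libraries alone it was 1897. In both aged libraries 29.9% of tested genes lay above both adult libraries and 29.4% lay below them.

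**Figure D1:**
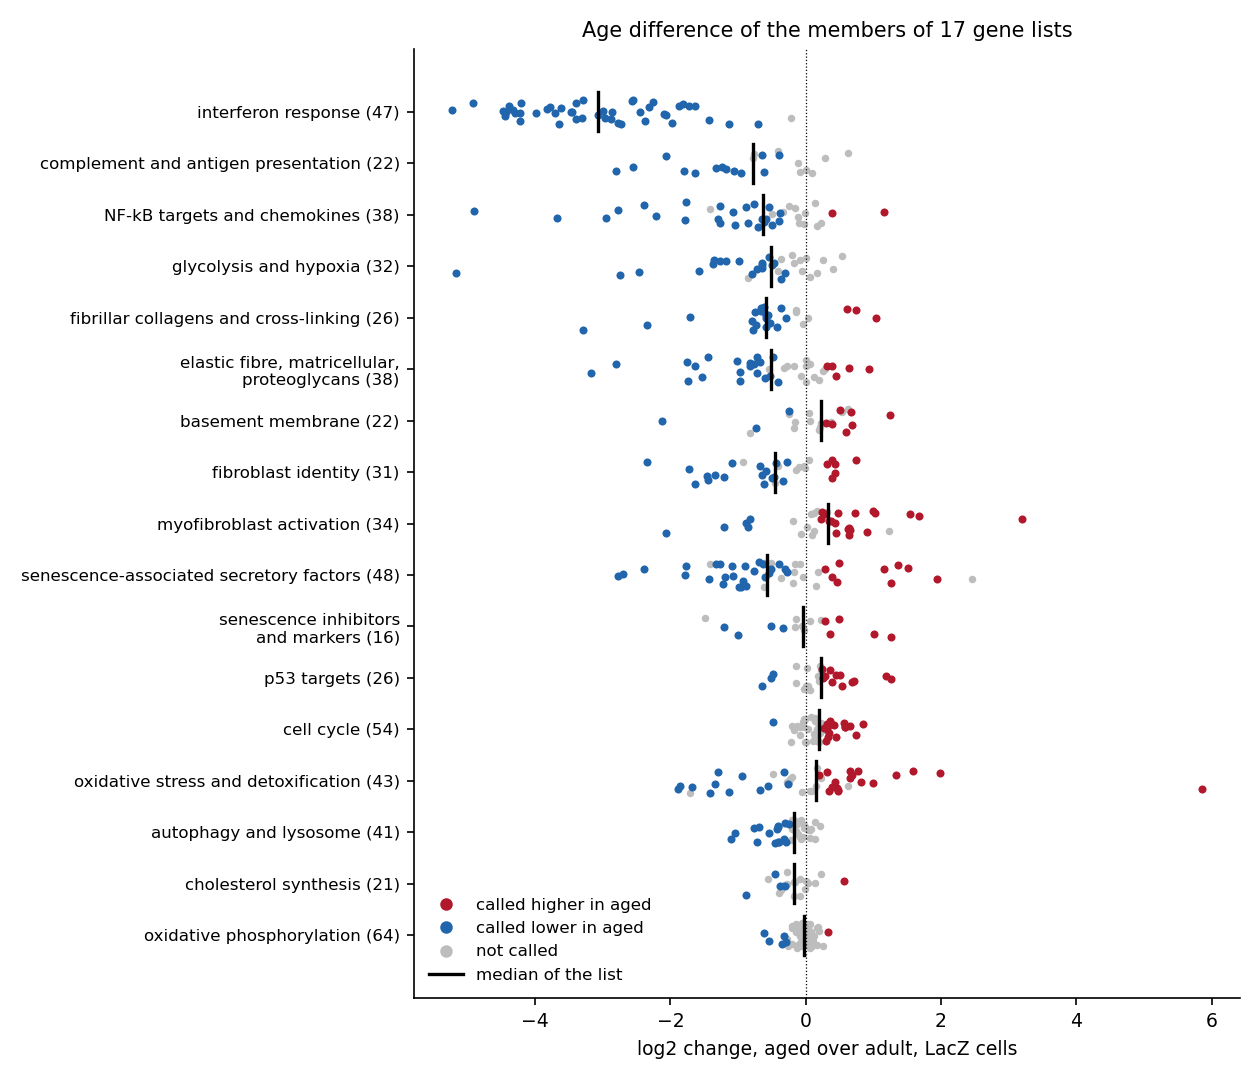
Each point is a tested gene of the list named at the left, with the number tested in brackets; the horizontal axis is the log2 change of aged over adult LacZ cells, red and blue points were called higher or lower at an adjusted p below 0.05, and black lines are list medians. The interferon response lies furthest to the left, with a median of -3.07, while myofibroblast, p53 and cell cycle genes have medians of 0.33, 0.22 and 0.20.

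Interferon-stimulated genes were lower in aged cells, with the lowest median of the 42 gene lists examined. Of 47 tested members of the interferon response list, 46 were lower and 0 were higher, with a median log2 change of -3.07, against a median of 0.00 over all tested genes. The member not called was Irf8 (-0.22 ± 0.28, adjusted p = 0.61). The summed level of the list was 938 and 1222 CPM in aged LacZ cells, against 7566 and 7557 CPM in adult LacZ cells. In neonatal LacZ cells it was 6288 and 6649 CPM, and 14 members were higher and 3 lower in adult LacZ cells than in neonatal ones (background 16.7% and 19.1%). The macrophage marker sum is given above, and the part of macrophages or other cells in the interferon difference was not tested. With single LacZ libraries left out, the median of the interferon list ran from -3.40 to -2.81.

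The genes with the largest changes encode antiviral effectors. Isg15, a ubiquitin-like protein that is conjugated to other proteins during infection, measured 12.3 and 18.8 CPM in aged LacZ cells, against 287 and 333 CPM in adult LacZ cells (log2 change -4.33 ± 0.16, SE, adjusted p = 1.5e-12). Ifi44, an interferon-induced cytoplasmic protein, measured 4.11 and 6.44 CPM in aged cells, against 159 and 159 CPM in adult cells (-4.92 ± 0.17, adjusted p = 5.4e-13). Rsad2, the enzyme viperin that makes a chain-terminating nucleotide, measured 4.63 and 8.61 CPM in aged cells, against 159 and 133 CPM in adult cells (-4.47 ± 0.20, adjusted p = 7.2e-12). For these genes every aged library lay more than an order of magnitude below every adult library.

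Ifit1, which binds RNA that lacks the host cap, measured 11.9 and 29.0 CPM in aged LacZ cells and 439 and 438 CPM in adult LacZ cells (-4.43 ± 0.23, adjusted p = 5.5e-11). Bst2, a tether that holds enveloped viruses at the cell surface, measured 42.0 and 40.3 CPM in aged cells and 454 and 577 CPM in adult cells (-3.65 ± 0.12, adjusted p = 4.5e-13). The immunity-related GTPases Iigp1 (6.30 and 14.7 CPM in aged cells, 226 and 228 CPM in adult cells, -4.44 ± 0.23) and Gbp3 (8.33 and 13.2 CPM in aged cells, 169 and 171 CPM in adult cells, -3.99 ± 0.16) showed the same separation. Mx1, a dynamin-like antiviral GTPase, was low at both ages, with 0.174 and 0.619 CPM in aged cells and 17.5 and 12.3 CPM in adult cells (-5.23 ± 0.40, adjusted p = 1.2e-08). Ifi206, an interferon-inducible gene of the Ifi200 family outside the list, measured 0.116 and 0.186 CPM in aged cells and 5.75 and 3.94 CPM in adult cells (-4.94 ± 0.53, adjusted p = 1.1e-06). Aged replicate 2 lay above aged replicate 1 in each of these genes other than Bst2, and below both adult libraries. Near-identical copies occur in the Ifit, Oas, Gbp, Mx, Ifi200, metallothionein and H2 families, and the counting could have split reads between them.

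**Figure D2:**
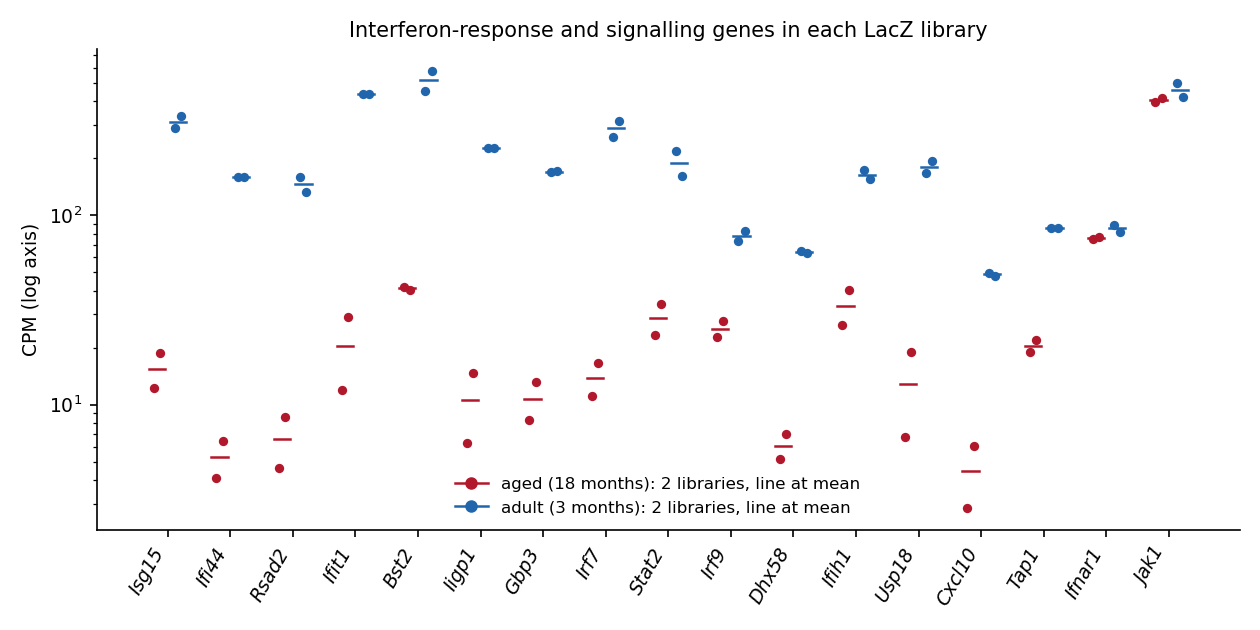
Points are CPM in each of 2 aged (red) and 2 adult (blue) LacZ libraries on a log axis, with short lines at the means. Interferon-stimulated genes, the factors Irf7, Stat2 and Irf9 and the sensors Dhx58 and Ifih1 are separated by age, while the receptor subunit Ifnar1 and the kinase Jak1 lie close together.

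Promoters of several of these genes hold the letters of the interferon-stimulated response element, which the complex with Stat2 and Irf9 is known to bind. Stretches from RefSeq promoter windows (GRCm38.p6, 250 bases before to 50 after the annotated start) are shown for 6 genes with large changes. They are written in the direction of the gene, with a match to GAAANNGAAA, on either strand, in capitals. The stretches of Ifit1, Isg15, Gbp3 and Bst2 hold further matches, left wholly or partly in lower case:
Rsad2, chr12:26456538-26456597, minus strand: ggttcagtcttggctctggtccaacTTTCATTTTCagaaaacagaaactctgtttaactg
Ifit1, chr19:34640779-34640838, plus strand: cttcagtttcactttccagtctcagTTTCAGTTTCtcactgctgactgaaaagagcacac
Isg15, chr4:156200862-156200921, minus strand: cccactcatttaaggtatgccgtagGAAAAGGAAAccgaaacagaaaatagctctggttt
Gbp3, chr3:142559980-142560039, plus strand: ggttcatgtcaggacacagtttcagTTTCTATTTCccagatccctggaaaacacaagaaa
Bst2, chr8:71537568-71537627, minus strand: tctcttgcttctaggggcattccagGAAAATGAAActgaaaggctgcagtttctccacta
Oas3, chr5:120777700-120777759, minus strand: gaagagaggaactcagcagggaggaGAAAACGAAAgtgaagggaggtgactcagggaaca
Of the 47 tested list members, 35 had a window in the table and 15 of these (42.9%) held GAAANNGAAA, against 3.59% of 9427 tested genes with a window. The 15 genes holding it had a median log2 change of -3.46 and ranged from -4.47 to -1.72. The 20 without it had a median of -2.17 and ranged from -4.92 to -0.22, so the ranges overlapped and genes such as Ifi44 fell strongly without a match in this window. A match is a description of letters and not of binding.

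The components of interferon signalling differed by role, in a list arranged after values were seen. The interferon genes Ifnb1, Ifne, Ifnk and Ifng summed to at most 0.169 CPM in each of the 4 libraries and could not be tested. Among 4 receptor subunits 1 was lower: Ifnar2 measured 60.3 and 64.0 CPM in aged LacZ cells and 109 and 109 CPM in adult LacZ cells (-0.80 ± 0.08, adjusted p = 5.6e-07). Ifnar1, the partner subunit, measured 75.1 and 77.2 CPM in aged cells and 89.4 and 81.6 CPM in adult cells (-0.17 ± 0.09, adjusted p = 0.18), and the receptor list ranged from -0.80 to -0.02. None of the 3 Janus kinases was called (2 were lower with exon length corrected). Jak1, the most abundant of them in CPM, measured 397 and 415 CPM in aged cells and 497 and 420 CPM in adult cells (-0.18 ± 0.08, adjusted p = 0.13), with a call without adult LacZ replicate 2 and with exon length corrected (-0.22).

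Of 7 signalling factors 5 were lower in aged cells. Stat2 measured 23.4 and 34.0 CPM in aged LacZ cells, against 218 and 162 CPM in adult LacZ cells (-2.73 ± 0.15, adjusted p = 1.4e-10). Irf9, the DNA-binding subunit of the complex, measured 22.7 and 27.7 CPM in aged cells, against 72.8 and 82.9 CPM in adult cells (-1.63 ± 0.10). Irf7, the factor that amplifies interferon transcription and is itself interferon-induced, measured 11.2 and 16.6 CPM in aged cells and 260 and 315 CPM in adult cells (-4.38 ± 0.19, adjusted p = 4.4e-12). Irf1 measured 7.06 and 9.97 CPM in aged cells and 28.0 and 31.6 CPM in adult cells (-1.81 ± 0.14). The aged and adult libraries did not overlap for any of these genes.

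Sensors of viral RNA were lower too, with 5 of 7 sensors and adaptors called. The RNA helicases Ddx58 (RIG-I; 70.4 and 91.3 CPM in aged cells, 273 and 260 CPM in adult cells), Ifih1 (MDA5; 26.3 and 40.1 CPM in aged cells, 172 and 155 CPM in adult cells) and Dhx58 (5.15 and 6.998 CPM in aged cells, 65.1 and 63.0 CPM in adult cells) changed by -1.72 ± 0.10, -2.31 ± 0.14 and -3.40 ± 0.15. Tlr3, the endosomal receptor for double-stranded RNA, changed by -2.04 ± 0.12. The DNA sensor Cgas measured 13.4 and 11.95 CPM in aged cells and 16.2 and 14.1 CPM in adult cells (-0.26 ± 0.13, adjusted p = 0.17), and the adaptor Mavs 37.1 and 32.2 CPM in aged cells and 28.6 and 28.2 CPM in adult cells (0.29 ± 0.13, adjusted p = 0.10). All 4 brakes of the pathway were lower. Usp18, which removes Isg15 and blocks the receptor, measured 6.71 and 18.9 CPM in aged cells and 168 and 193 CPM in adult cells (-3.83 ± 0.24). Socs3 measured 21.2 and 28.1 CPM in aged cells and 61.5 and 61.4 CPM in adult cells (-1.32 ± 0.15), Adar, which edits double-stranded RNA, changed by -1.33 ± 0.11, and Socs1 by -1.01 ± 0.27, a call lost without aged LacZ replicate 2.

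Genes of antigen presentation and complement were lower in aged cells: 14 of 22 tested were lower and 0 higher, with a median of -0.78. Tap1, the peptide transporter that loads class I molecules, measured 19.03 and 21.9 CPM in aged LacZ cells and 86.0 and 85.5 CPM in adult LacZ cells (-2.07 ± 0.11, adjusted p = 6.2e-11), and it is also an interferon-induced gene. The class I gene H2-Q4 measured 24.2 and 24.8 CPM in aged cells and 138 and 152 CPM in adult cells (-2.56 ± 0.11), and Tapbp, the tapasin that bridges them, 72.6 and 69.6 CPM in aged cells and 230 and 265 CPM in adult cells (-1.80 ± 0.09). The complement inhibitor Serping1 measured 252 and 286 CPM in aged cells, against 799 and 880 CPM in adult cells (-1.64 ± 0.10), and the protease C1ra 24.7 and 26.4 CPM in aged cells, against 64.9 and 63.1 CPM in adult cells (-1.33 ± 0.09). Aged libraries lay below both adult libraries in 17 of the 22 genes, against 29.4% of all tested genes. Over all tested genes 14.0% were called lower.

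NF-kB targets and chemokines were lower as a group, with 24 of 38 tested lower, 2 higher and a median of -0.63 (4 higher without adult LacZ replicate 1). The 2 higher were Ptgs2 and Csf1. Outside the list, Hp, haptoglobin, an acute-phase protein that binds free haemoglobin, measured 4.34 and 6.26 CPM in aged LacZ cells, against 177 and 191 CPM in adult LacZ cells (-5.13 ± 0.17, adjusted p = 4.5e-13). Within it, the acute-phase gene Saa3 measured 7.69 and 8.05 CPM in aged cells, against 96.6 and 103 CPM in adult cells (-3.67 ± 0.18). Lcn2, a siderophore-binding protein, measured 26.6 and 27.1 CPM in aged cells, against 134 and 147 CPM in adult cells (-2.39 ± 0.09). Hp lay 3.63 ± 0.15 log2 units higher in adult LacZ cells than in neonatal ones (neonatal 15.7 and 14.1 CPM), so its adult level was the highest of the 3 ages.

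The cytokines Il6 and Ccl2 were lower by smaller steps and at higher levels. Il6, a cytokine of the senescence-associated secretory programme, measured 189 and 227 CPM in aged LacZ cells, against 626 and 792 CPM in adult LacZ cells (-1.77 ± 0.13, adjusted p = 5.3e-09). Ccl2, the monocyte chemokine, measured 567 and 555 CPM in aged cells, against 1256 and 1454 CPM in adult cells (-1.27 ± 0.08). Nos2, the inducible nitric oxide synthase, measured 0.174 and 0.186 CPM in aged cells, against 6.32 and 4.90 CPM in adult cells (-4.91 ± 0.47). The chemokine Cxcl10, an interferon target, measured 2.83 and 6.07 CPM in aged cells and 49.7 and 47.7 CPM in adult cells (-3.46 ± 0.25). Sod2, the mitochondrial superoxide dismutase, changed by -1.30 ± 0.10. Ptgs2, the inducible cyclooxygenase, ran the other way, with 461 and 421 CPM in aged cells and 185 and 211 CPM in adult cells (1.15 ± 0.11, adjusted p = 2.4e-07).

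**Figure D3:**
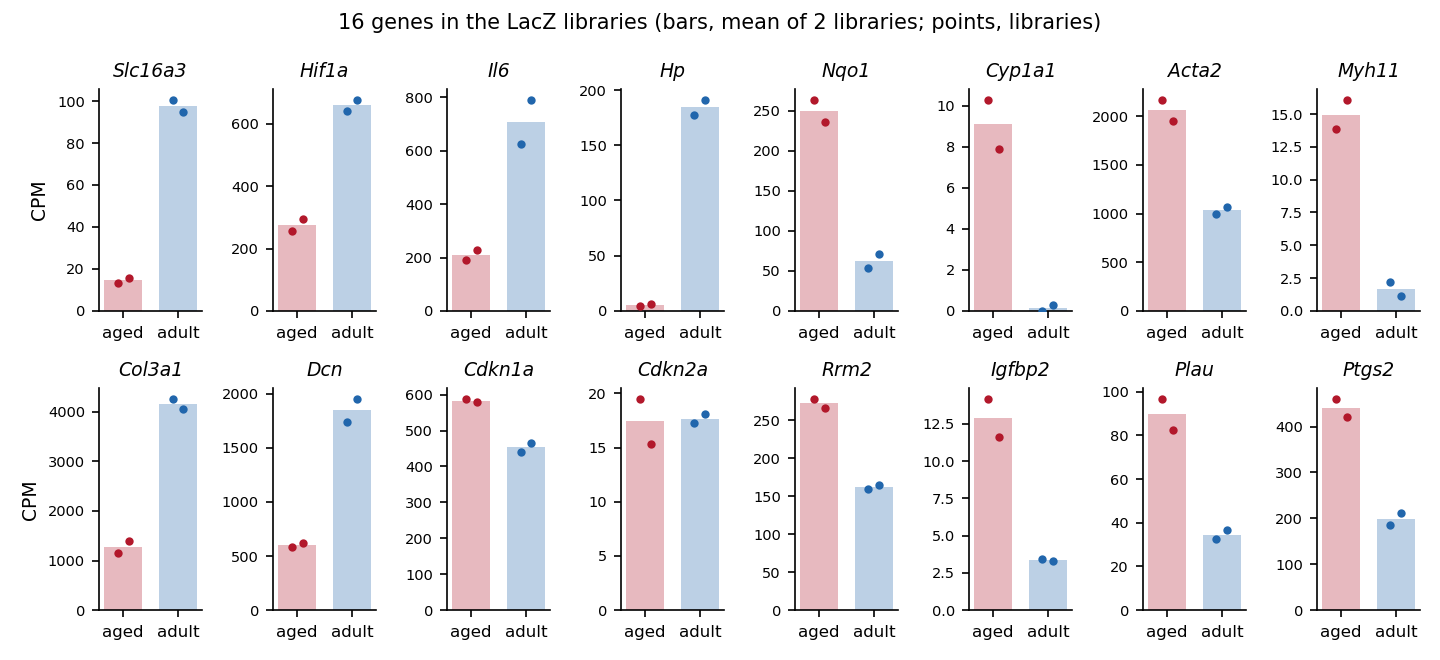
Bars are means of 2 libraries and points the CPM of each library, for aged (red, left) and adult (blue, right) LacZ cells, on linear axes that start at 0. Il6, Hp, Hif1a, Slc16a3, Col3a1 and Dcn are lower in aged cells, Nqo1, Cyp1a1, Acta2, Myh11, Rrm2, Igfbp2, Plau and Ptgs2 are higher, Cdkn1a is higher by less, and the aged and adult points of Cdkn2a overlap.

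Genes of glycolysis and the hypoxia response were lower in aged cells: 19 of 32 tested were lower and 0 higher (1 higher without either adult library), with a median of -0.52. Ndufa4l2, a hypoxia-inducible mitochondrial protein, measured 0.405 and 0.495 CPM in aged LacZ cells, against 17.1 and 15.8 CPM in adult LacZ cells (-5.17 ± 0.28, adjusted p = 1.0e-10). Slc16a3, the lactate exporter MCT4, measured 13.2 and 15.9 CPM in aged cells, against 101 and 94.8 CPM in adult cells (-2.75 ± 0.12, adjusted p = 4.0e-12). Pdk1, which turns pyruvate away from mitochondria, measured 5.26 and 9.41 CPM in aged cells, against 42.5 and 38.3 CPM in adult cells (-2.47 ± 0.17). The aged and adult libraries did not overlap for these 3 genes, nor for Pfkl, the liver-type phosphofructokinase (63.4 and 70.6 CPM in aged cells, 174 and 168 CPM in adult cells, -1.35 ± 0.09).

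The oxygen-sensing factors themselves were lower. Hif1a measured 257 and 296 CPM in aged LacZ cells, against 643 and 678 CPM in adult LacZ cells (-1.26 ± 0.08, adjusted p = 1.6e-09). Epas1, which encodes the related HIF-2 alpha, measured 144 and 149 CPM in aged cells, against 279 and 231 CPM in adult cells (-0.80 ± 0.09). Vhl, the ligase that marks hydroxylated Hif1a for breakdown, changed by -0.61 ± 0.10, and the prolyl hydroxylases Egln1 and Egln3 by -0.50 ± 0.09 and -0.65 ± 0.18, with Egln3 not called without aged LacZ replicate 2. Vegfa, the angiogenic target, measured 199 and 204 CPM in aged cells, against 403 and 399 CPM in adult cells (-0.99 ± 0.08), and the stress gene Ddit4 73.5 and 80.7 CPM in aged cells, against 169 and 182 CPM in adult cells (-1.18 ± 0.09). Stretches around a copy of the hypoxia core ACGTG, in capitals on either strand, are shown for 3 of the lowered genes. A further copy in the Slc16a3 stretch is in lower case:
Slc16a3, chr11:120949015-120949069, plus strand: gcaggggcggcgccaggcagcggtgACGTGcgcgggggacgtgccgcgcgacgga
Hif1a, chr12:73907708-73907762, plus strand: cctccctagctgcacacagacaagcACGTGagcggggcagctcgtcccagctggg
Ddit4, chr10:59951928-59951982, minus strand: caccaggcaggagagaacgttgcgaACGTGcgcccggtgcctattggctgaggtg
The core was in the window of 19 of 27 list genes with a promoter (70.4%), against 29.2% of all tested genes with a promoter. The list genes had 1.48 annotated windows each, against 1.29 over all genes. Windows at every annotated start were counted, also starts inside a gene such as that of Vegfa, and ACGTG also lies within the E-box CACGTG.

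Targets of the aryl hydrocarbon receptor, a sensor of aromatic ligands that pairs with Arnt, were higher in aged cells, in a list drawn up after values were seen. All 5 were called higher, with a median of 1.99. Cyp1a1, its classical target and a monooxygenase, measured 10.3 and 7.87 CPM in aged LacZ cells, against 0 and 0.282 CPM in adult LacZ cells, 305 counts against 5 (5.86 ± 0.45, adjusted p = 1.1e-08). That change was 10.25 without adult LacZ replicate 2, which leaves 0 counts in the adult group, and 4.98 at the lowest. Nqo1, a quinone reductase, measured 264 and 236 CPM in aged cells, against 54.2 and 71.1 CPM in adult cells (1.99 ± 0.11, adjusted p = 1.2e-10).

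The receptor's own feedback genes followed. Ahrr, its repressor, measured 11.7 and 10.96 CPM in aged LacZ cells and 2.36 and 2.59 CPM in adult LacZ cells (2.19 ± 0.20, adjusted p = 1.1e-07). Tiparp, which ADP-ribosylates the receptor, changed by 0.63 ± 0.10, and Cyp1b1 by 0.39 ± 0.10, a call lost without aged LacZ replicate 2. Ahr itself measured 28.5 and 32.1 CPM in aged cells and 33.6 and 24.3 CPM in adult cells (0.07 ± 0.14, adjusted p = 0.75), with overlapping ages. A copy of the receptor's core element GCGTG, on either strand, is in capitals below, and a further copy in the Ahrr stretch is in lower case:
Cyp1a1, chr9:57697534-57697588, plus strand: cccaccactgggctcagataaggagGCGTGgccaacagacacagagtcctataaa
Ahrr, chr13:74292409-74292463, minus strand: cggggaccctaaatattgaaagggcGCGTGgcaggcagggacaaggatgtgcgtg
Tiparp, chr3:65528252-65528306, plus strand: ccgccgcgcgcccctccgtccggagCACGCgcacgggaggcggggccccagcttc
It was in the window of 4 of the 5 genes, and in those of 55.9% of all tested genes with a promoter.

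Oxidative stress and detoxification genes moved both ways, with 18 of 43 higher, 12 lower and a median of 0.15. Without adult LacZ replicate 1 there were 15 higher and 15 lower, with a median of 0.07, and without adult LacZ replicate 2 there were 21 higher and 10 lower, with a median of 0.25. The higher genes included targets of the antioxidant factor Nrf2, named after values were seen. Txnrd1, thioredoxin reductase, measured 945 and 884 CPM in aged LacZ cells and 548 and 523 CPM in adult LacZ cells (0.77 ± 0.08), Srxn1, sulfiredoxin, changed by 0.81 ± 0.10, and both subunits of glutamate-cysteine ligase, Gclc and Gclm, by 0.66 ± 0.09. The lower genes included the metallothioneins Mt2 (48.2 and 46.3 CPM in aged cells, 165 and 184 CPM in adult cells, -1.89 ± 0.10) and Mt1 (-1.34 ± 0.10), the plasma glutathione peroxidase Gpx3 (133 and 155 CPM in aged cells, 415 and 507 CPM in adult cells, -1.68 ± 0.11) and the retinoic acid enzyme Aldh1a2 (-1.41 ± 0.10). The antioxidant core TGACNNNGC was in the window of 12 of 37 list genes (32.4%), against 17.1% of all.

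Fibrillar collagens and cross-linking enzymes were mostly lower: 19 of 26 were lower and 3 higher, with a median of -0.59. Col1a1 and Col1a2, the chains of type I collagen, measured 2592 and 2933 CPM and 2898 and 3218 CPM in aged LacZ cells, against 4416 and 3879 CPM and 4803 and 4539 CPM in adult LacZ cells (-0.59 ± 0.10 and -0.61 ± 0.08). Col3a1 measured 1146 and 1396 CPM in aged cells, against 4262 and 4060 CPM in adult cells (-1.71 ± 0.10, adjusted p = 5.2e-10). Col11a1, a minor fibrillar chain, measured 40.7 and 47.4 CPM in aged cells, against 236 and 210 CPM in adult cells (-2.34 ± 0.10). Col14a1, a fibril-associated collagen, measured 4.86 and 9.79 CPM in aged cells, against 92.1 and 50.9 CPM in adult cells (-3.29 ± 0.25). Bmp1, the procollagen protease, and Loxl2, a cross-linking oxidase, changed by -0.80 ± 0.10 and -0.66 ± 0.08. The 3 higher genes included Col6a3, a microfibril chain, with 19.6 and 17.3 CPM in aged cells and 11.5 and 6.70 CPM in adult cells (1.04 ± 0.19).

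Elastic fibre, matricellular and proteoglycan genes were lower in 20 of 38 and higher in 5, with a median of -0.51 (9 higher without adult LacZ replicate 1). Decorin (Dcn), which coats collagen fibrils, measured 579 and 616 CPM in aged LacZ cells, against 1739 and 1951 CPM in adult LacZ cells (-1.63 ± 0.10, adjusted p = 3.4e-10). Elastin (Eln) measured 1.56 and 1.55 CPM in aged cells, against 11.2 and 10.5 CPM in adult cells (-2.80 ± 0.19), and the microfibril protein Mfap4 2.43 and 3.16 CPM in aged cells, against 25.4 and 24.96 CPM in adult cells (-3.17 ± 0.22). Postn, periostin, a matricellular protein of activated fibroblasts, measured 173 and 148 CPM in aged cells, against 305 and 263 CPM in adult cells (-0.82 ± 0.10, adjusted p = 3.3e-06). Its neonatal LacZ level was 2260 and 2272 CPM. Tenascin C (Tnc) was higher, with 2362 and 2354 CPM in aged cells and 1731 and 1301 CPM in adult cells (0.64 ± 0.10).

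Basement membrane genes were higher in 7 of 22 and lower in 3, with a median of 0.22. Over all tested genes 13.1% were higher and 14.0% lower, so the lower count is close to background. Nid1, the linker nidogen, measured 2989 and 2933 CPM in aged LacZ cells and 2099 and 1636 CPM in adult LacZ cells (0.67 ± 0.09), and Col15a1 17.3 and 20.8 CPM in aged cells and 9.01 and 7.16 CPM in adult cells (1.24 ± 0.14). Agrin (Agrn) was lower, with 25.8 and 26.9 CPM in aged cells and 128 and 102 CPM in adult cells (-2.12 ± 0.11). The list depended on the library left out. Without adult LacZ replicate 2 its median was 0.01, with 6 higher and 4 lower, and without adult LacZ replicate 1 it was 0.41, with 12 higher and 2 lower. Without aged LacZ replicate 1, 5 were higher and 1 lower. Matrix proteases and their inhibitors were lower in 15 of 37 and higher in 8 (4 higher without adult LacZ replicate 2 or aged LacZ replicate 1, and 5 without aged LacZ replicate 2). Mmp3, stromelysin, measured 803 and 874 CPM in aged cells, against 1756 and 2175 CPM in adult cells (-1.23 ± 0.10), and Mmp2 158 and 158 CPM in aged cells, against 293 and 294 CPM in adult cells (-0.90 ± 0.07). Urokinase (Plau) was higher, with 96.7 and 82.6 CPM in aged cells and 32.8 and 36.5 CPM in adult cells (1.37 ± 0.10, adjusted p = 7.9e-09), while the other plasminogen activator Plat was lower (-0.93 ± 0.09).

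Of 34 tested genes of myofibroblast activation 19 were higher and 5 lower, with a median of 0.33 (11 higher and 4 lower with the spread of the 4 libraries alone). Acta2, smooth muscle actin, measured 2171 and 1948 CPM in aged LacZ cells, against 995 and 1069 CPM in adult LacZ cells (1.00 ± 0.08, adjusted p = 1.5e-08). Tagln measured 417 and 375 CPM in aged cells, against 193 and 196 CPM in adult cells (1.03 ± 0.09). Cnn1, calponin, measured 23.9 and 21.8 CPM in aged cells, against 6.39 and 7.77 CPM in adult cells (1.68 ± 0.15). Myh11, the smooth muscle myosin heavy chain, measured 13.8 and 16.1 CPM in aged cells, against 2.17 and 1.13 CPM in adult cells (3.20 ± 0.23, adjusted p = 5.1e-09). Aged and adult libraries did not overlap for these 4 genes. Acta2, Cnn1 and Myh11 also stand on the smooth muscle list, whose sum is given above and whose part in the result was not tested.

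Lmod1, a smooth muscle leiomodin, changed by 1.54 ± 0.19 and the pericyte proteoglycan Cspg4 by 1.19 ± 0.27. Among lower genes, Cthrc1, a secreted protein of activated heart fibroblasts, measured 7.29 and 8.86 CPM in aged LacZ cells, against 29.1 and 38.3 CPM in adult LacZ cells (-2.07 ± 0.14). The integrin subunit Itgb5 changed by -0.86 ± 0.08, and Fap, fibroblast activation protein, by -1.21 ± 0.25. In neonatal LacZ cells Acta2 measured 2775 and 2741 CPM, above both other ages. The CArG box, the element of serum response factor, was in the window of 2 of 24 list genes with a promoter (8.33%), against 1.59% of all.

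Genes of fibroblast identity were lower in 17 of 31 and higher in 6, with a median of -0.45. Dpt, dermatopontin, measured 4.97 and 6.44 CPM in aged LacZ cells, against 26.5 and 31.0 CPM in adult LacZ cells (-2.34 ± 0.18), and Mgp, matrix Gla protein, 108 and 99.3 CPM in aged cells, against 241 and 239 CPM in adult cells (-1.21 ± 0.09). Medag changed by -1.34 ± 0.09, Tcf21 by -1.09 ± 0.12 and Pdgfra by -0.50 ± 0.09. Cd34, a surface marker of resting fibroblasts, was higher, with 151 and 145 CPM in aged cells and 84.1 and 92.4 CPM in adult cells (0.75 ± 0.09), and Thy1 was higher by 0.44 ± 0.09.

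Senescence markers showed no common direction: 5 of 16 were higher and 4 lower, with a median of -0.04 (-0.08 to 0.02 with single LacZ libraries left out). Cdkn2a, the locus of p16 and p19, measured 19.5 and 15.4 CPM in aged LacZ cells and 17.2 and 18.1 CPM in adult LacZ cells, and the ages overlapped (-0.02 ± 0.16, adjusted p = 0.95). Cdkn1a, p21, measured 588 and 579 CPM in aged cells, against 440 and 466 CPM in adult cells (0.36 ± 0.07, adjusted p = 0.00092). Its neonatal LacZ level was 622 and 616 CPM. Lmnb1, the lamin whose loss marks senescent cells, measured 119 and 121 CPM in aged cells and 122 and 128 CPM in adult cells (-0.06 ± 0.08, adjusted p = 0.66). Cdkn1b, p27, was lower, with 38.9 and 41.2 CPM in aged cells and 78.4 and 81.5 CPM in adult cells (-1.0 ± 0.10). Glb1, the lysosomal beta-galactosidase behind the senescence stain, was lower as well (62.8 and 63.3 CPM in aged cells, 85.6 and 94.8 CPM in adult cells, -0.52 ± 0.09). Gdf15, a stress cytokine, was higher, with 60.7 and 50.7 CPM in aged cells and 19.03 and 27.4 CPM in adult cells (1.26 ± 0.14), and so was Plaur, the urokinase receptor (110 and 90.5 CPM in aged cells, 46.6 and 52.7 CPM in adult cells, 1.01 ± 0.10). Cdkn2b and Trp53 are not analysed here.

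Senescence-associated secretory factors were lower in 26 of 48 and higher in 9, with a median of -0.57. The lower genes included Il6, Ccl2, Mmp3 and Vegfa, described above, and Cxcl1 (200 and 220 CPM in aged LacZ cells, 342 and 430 CPM in adult LacZ cells, -0.88 ± 0.11). The higher genes included Plau, Gdf15 and Igfbp2, given with other lists, Igfbp6 (33.3 and 30.5 CPM in aged cells, 11.1 and 11.2 CPM in adult cells, 1.51 ± 0.12) and Csf1, the macrophage growth factor (3945 and 3849 CPM in aged cells, 3176 and 2780 CPM in adult cells, 0.39 ± 0.08, not called with the spread of the 4 libraries alone). In neonatal LacZ cells Il6 measured 110 and 128 CPM, below both aged libraries.

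Targets of p53 were higher in 12 of 26 and lower in 3, with a median of 0.22. Ccng1, a cyclin induced by p53, measured 843 and 833 CPM in aged LacZ cells, against 560 and 617 CPM in adult LacZ cells (0.51 ± 0.08). The kinase Plk2 measured 496 and 440 CPM in aged cells, against 302 and 284 CPM in adult cells (0.68 ± 0.08), and the apoptosis effector Perp 7.98 and 6.87 CPM in aged cells, against 2.94 and 3.55 CPM in adult cells (1.19 ± 0.18). Mdm2, the ligase of p53, changed by 0.26 ± 0.07 (adjusted p = 0.015), a call lost without aged LacZ replicate 1 and with the spread of the 4 libraries alone. The lower genes were Btg2 (-0.49 ± 0.08), the death receptor Fas (-0.64 ± 0.11) and Sesn1, a sestrin (-0.52). For the list as a whole 19 members were lower and 0 higher in adult LacZ cells than in neonatal ones (background 19.1% and 16.7%).

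Cell cycle genes were higher in 18 of 54 and lower in 1, with a median of 0.20 (10 higher with the spread of the 4 libraries alone). The leading genes act at the entry into DNA synthesis. Rrm2, a subunit of ribonucleotide reductase, measured 279 and 266 CPM in aged LacZ cells, against 160 and 166 CPM in adult LacZ cells (0.74 ± 0.08, adjusted p = 1.5e-06). The S-phase factors E2f1 (40.1 and 40.8 CPM in aged cells, 26.6 and 27.4 CPM in adult cells), E2f7 (44.0 and 46.7 CPM in aged cells, 26.8 and 24 CPM in adult cells) and Ccne2 (55.5 and 56.1 CPM in aged cells, 34.2 and 36.1 CPM in adult cells) changed by 0.58 ± 0.10, 0.84 ± 0.10 and 0.66 ± 0.11. Tyms, thymidylate synthase, was lower (71.1 and 71.4 CPM in aged cells, 92.5 and 106 CPM in adult cells, -0.48 ± 0.09). The 18 higher genes also included 5 subunits of the replicative helicase, Mcm2, Mcm3, Mcm4, Mcm5 and Mcm7, with changes of 0.27 to 0.45. Cdk1, the mitotic kinase, measured 152 and 153 CPM in aged cells and 125 and 139 CPM in adult cells (0.20 ± 0.09, adjusted p = 0.095), and was called without adult LacZ replicate 2. Mki67, a proliferation antigen, measured 292 and 297 CPM in aged cells and 241 and 142 CPM in adult cells (0.63 ± 0.24, adjusted p = 0.058), and was called without adult LacZ replicate 1 (1.06), with limma-voom and with exon length corrected (0.59).

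Immediate early and NR4A genes moved both ways, with 7 of 27 higher, 10 lower and a median of -0.15 (4 higher and 5 lower without aged LacZ replicate 1). The median was -0.29 without adult LacZ replicate 1 and -0.06 without adult LacZ replicate 2. Nr4a3, the nuclear receptor of the study's title, measured 8.44 and 11.8 CPM in aged LacZ cells and 11.2 and 13.4 CPM in adult LacZ cells, with overlapping ages (-0.29 ± 0.19, adjusted p = 0.28). Nr4a2 measured 9.54 and 11.95 CPM in aged cells and 12.9 and 15.7 CPM in adult cells (-0.42 ± 0.24, adjusted p = 0.22), and was called with no filter on low counts. Nr4a1, the most abundant member in CPM, measured 157 and 191 CPM in aged cells, against 273 and 307 CPM in adult cells (-0.74 ± 0.13, adjusted p = 0.00038). Egr2 (-0.75 ± 0.09), Junb (-0.70 ± 0.11) and the mRNA-decay factor Zfp36 (-0.68 ± 0.09) were lower. Fosl1, an AP-1 subunit, was higher (29.4 and 27.2 CPM in aged cells, 16.2 and 10.3 CPM in adult cells, 1.11 ± 0.15), as was Maff (0.78 ± 0.09). The delivered factors, here at their endogenous level, were not called: Gata4 measured 112 and 111 CPM in aged cells and 123 and 116 CPM in adult cells (-0.10 ± 0.09, adjusted p = 0.44), Mef2c 8.04 and 10.3 CPM in aged cells and 10.1 and 8.90 CPM in adult cells (-0.05 ± 0.16), and Tbx5 0.463 and 0.743 CPM in aged cells and 1.21 and 0.789 CPM in adult cells (-0.72 ± 0.44).

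Growth factors and receptors were higher in 16 of 57 and lower in 23, with a median of -0.17 (10 higher and a median of -0.10 without aged LacZ replicate 1, and -0.09 without adult LacZ replicate 1). Ptn, pleiotrophin, a heparin-binding growth factor, measured 0.174 and 0.557 CPM in aged LacZ cells, against 7.98 and 8.23 CPM in adult LacZ cells (-4.47 ± 0.36, adjusted p = 2.0e-08), and its relative Mdk, midkine, 7.92 and 10.96 CPM in aged cells, against 25.6 and 31.9 CPM in adult cells (-1.61 ± 0.16). Gas6, the ligand of the Axl receptor family, measured 79.7 and 88.2 CPM in aged cells, against 221 and 222 CPM in adult cells (-1.40 ± 0.09). In the insulin-like growth factor axis 7 of 16 were lower and 4 higher. Igf1 measured 16.1 and 14.9 CPM in aged cells, against 40.8 and 34.5 CPM in adult cells (-1.28 ± 0.13), while the binding protein Igfbp2 measured 14.2 and 11.6 CPM in aged cells, against 3.45 and 3.27 CPM in adult cells (1.94 ± 0.18).

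The Wnt pathway had 13 of 45 genes lower and 6 higher, with a median of 0.04 (10 higher without adult LacZ replicate 1, and 3 without adult LacZ replicate 2 or aged LacZ replicate 1). Its median ran from -0.05 to 0.08 with single LacZ libraries left out. The lower genes included secreted inhibitors: Sfrp1 measured 162 and 236 CPM in aged LacZ cells, against 761 and 621 CPM in adult LacZ cells (-1.80 ± 0.14), Dkk3 5.67 and 7.56 CPM in aged cells, against 30.7 and 30.2 CPM in adult cells (-2.21 ± 0.14), and Sfrp2 changed by -1.82 ± 0.17. The agonist Rspo3 was lower as well (0.867 and 0.619 CPM in aged cells, 4.66 and 5.30 CPM in adult cells, -2.73 ± 0.30), while the inhibitor Dkk2 was higher (8.96 and 8.05 CPM in aged cells, 2.75 and 2.08 CPM in adult cells, 1.82 ± 0.22). In the TGF-beta and BMP pathway 11 of 47 were lower and 9 higher, with a median of 0.03 (6 lower and a median of -0.02 without aged LacZ replicate 1, and -0.01 without aged LacZ replicate 2). Tgfbi, a secreted target, measured 4.68 and 6.69 CPM in aged cells, against 26.8 and 25.7 CPM in adult cells (-2.21 ± 0.17), and the ligand Gdf6 143 and 174 CPM in aged cells, against 344 and 346 CPM in adult cells (-1.12 ± 0.10). Smurf2, a ligase that removes Smad proteins and receptors, was higher (0.78 ± 0.10). The background for both pathways was 13.1% of tested genes higher and 14.0% lower.

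Lysosome and autophagy genes were lower in 16 of 41 and higher in 0, with a median of -0.17. Scarb2, the receptor that carries glucocerebrosidase to lysosomes, measured 295 and 337 CPM in aged LacZ cells, against 647 and 653 CPM in adult LacZ cells (-1.04 ± 0.08). The galactosidase Gla measured 40.0 and 41.6 CPM in aged cells, against 83.4 and 91.3 CPM in adult cells (-1.10 ± 0.10), and progranulin (Grn) 294 and 270 CPM in aged cells, against 460 and 504 CPM in adult cells (-0.77 ± 0.08). Nuclear-encoded genes of oxidative phosphorylation were mostly not called, with 5 of 64 lower and 1 higher. The counts followed the adult library left out: 16 were lower without adult LacZ replicate 1, 9 were higher and 1 lower without adult LacZ replicate 2, and 3 were higher and 3 lower with exon length corrected. Without aged LacZ replicate 1, 0 were higher, and without aged LacZ replicate 2, 2 were lower. Unfolded protein response and heat shock genes were lower in 11 of 39 and higher in 6 (6 lower without either aged library), and cholesterol synthesis genes were lower in 4 of 21 and higher in 1 (2 lower without aged LacZ replicate 1, and 2 higher without adult LacZ replicate 1). Insig1, which retains the sterol sensor in the endoplasmic reticulum, measured 41.8 and 42.5 CPM in aged cells, against 77.9 and 77.8 CPM in adult cells (-0.89 ± 0.10). For these lists too the background was 13.1% of tested genes higher and 14.0% lower.

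The remaining lists are given against the 13.1% of all tested genes that were higher and the 14.0% that were lower. Ion channels and calcium signalling genes were higher in 12 of 46 and lower in 10 (5 lower without aged LacZ replicate 1). Homeobox genes were higher in 6 of 35 and lower in 6 (2 lower without aged LacZ replicate 1). Cartilage and bone genes were lower in 8 of 22 and higher in 2 (1 higher without adult LacZ replicate 2 or aged LacZ replicate 1). Adipocyte and lipid storage genes were higher in 7 of 20 and lower in 2 (2 higher and 1 lower without aged LacZ replicate 1, and 3 higher without aged LacZ replicate 2 or adult LacZ replicate 2). Imprinted and fetal growth genes were lower in 6 of 20 and higher in 2 (1 higher without aged LacZ replicate 1). Hyaluronan genes were lower in 3 of 13 and higher in 1 (3 higher without adult LacZ replicate 1), and fatty acid oxidation genes were lower in 2 of 25 and higher in 1 (1 lower without either aged library or adult LacZ replicate 2, and 3 lower and 2 higher without adult LacZ replicate 1).

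Smooth muscle and epicardial markers are given above. Of 15 tested endothelial markers 2 were lower, with none without aged LacZ replicate 1 and 4 without aged LacZ replicate 2. Of 8 valve and endocardial markers 2 were lower (1 without aged LacZ replicate 1), and 1 was higher without adult LacZ replicate 1. Of 7 Schwann cell markers 0 were called (1 higher without adult LacZ replicate 1, and 1 lower with exon length corrected). Of 18 tested macrophage markers 1 was higher and 2 lower (1 lower without aged LacZ replicate 1, and 3 higher with exon length corrected). Of 13 tested cardiomyocyte genes 3 were higher (Atp2a2, Nppb and Casq2) and 1 lower (Myl2). At most 1 was higher without any single library, and none was called without aged LacZ replicate 2. Of 5 sex-linked genes 1 was higher, a call lost without either aged library.

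The 12 named genes with the largest rises, chosen by size among calls without overlap, were mostly rare transcripts. Cobl, an actin nucleator, was the most abundant of them, with 37.0 and 27.7 CPM in aged LacZ cells, against 7.22 and 4.96 CPM in adult LacZ cells (2.42 ± 0.19, adjusted p = 1.2e-08). The homeobox genes Irx2 (4.28 and 3.59 CPM in aged cells, 0.958 and 0.451 CPM in adult cells, 2.50 ± 0.42) and Hoxc13 (6.19 and 4.58 CPM in aged cells, 0.703 and 1.24 CPM in adult cells, 2.45 ± 0.34) specify position. Asb2, a ligase subunit that degrades filamins, measured 6.94 and 5.02 CPM in aged cells, against 1.15 and 1.24 CPM in adult cells (2.32 ± 0.30), and Fibcd1, a chitin receptor, 4.34 and 3.41 CPM in aged cells, against 0.639 and 0.789 CPM in adult cells (2.42 ± 0.41). The matrix glycoprotein Tnr (2.67 ± 0.50), the epidermal gene Lce1g (2.85 ± 0.64, and 4.41 without adult LacZ replicate 1), the taste receptor subunit Tas1r3 (2.44 ± 0.51) and the sialyltransferase St8sia2 (2.39 ± 0.63) all lay below 3 CPM in aged cells, and St8sia2 was not called without adult LacZ replicate 2 or aged LacZ replicate 2. Pglyrp3, a peptidoglycan receptor, had 36 counts in aged cells and 3 in adult cells, a ratio of 12.1 (95% counting interval 3.81 to 61.2). Among the largest falls, the channel subunit Cngb3 had 2 counts in aged cells and 56 in adult cells, a ratio of adult over aged of 27.8 (95% counting interval 7.36 to 236).

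The same ages under MGT gave a measure in libraries that the LacZ comparison does not use. Under MGT 2369 genes (19.8%) were called, 1170 higher (9.8%) and 1199 lower (10.0%) in aged cells. Of the 3232 genes called under LacZ, 2931 (90.7%) had the same sign under MGT and 1545 (47.8%) were also called with that sign, while 14 were called with the opposite sign. Over all tested genes 72.9% had the same sign. The change under MGT also followed exon length, with a rho of 0.169, against 0.136 under LacZ. The part of this trend in the shared signs was not tested. Age and cell preparation cannot be told apart under either vector. The difference between the 2 age effects was called for 284 genes (2.38%), 201 (1.68%) in which the MGT change was the more positive and 83 (0.695%) in which it was the more negative. That count rests on few libraries: it was 705 and 815 without adult LacZ replicates 1 and 2, 110 without aged LacZ replicate 1, 114 and 173 without adult MGT replicates 1 and 2, and 129 without aged MGT replicate 2. The MGT count was 1435 and 1076 without adult MGT replicates 1 and 2, and 1314 without aged MGT replicate 2.

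**Figure D4:**
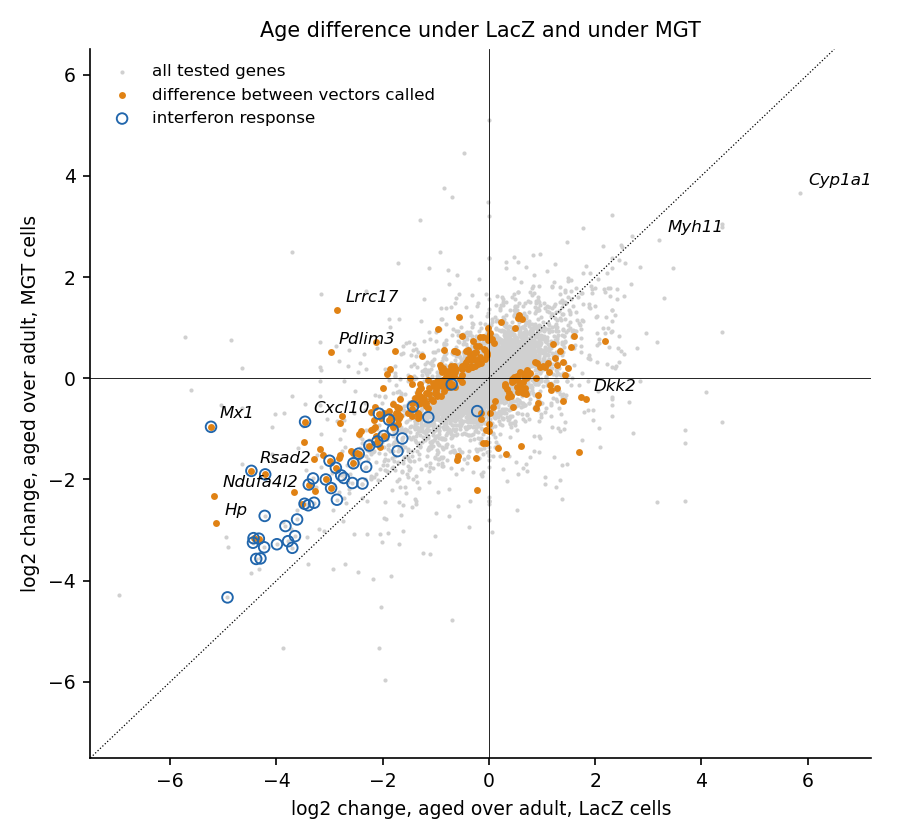
Each point is a tested gene, with its log2 change of aged over adult in LacZ cells on the horizontal axis and in MGT cells on the vertical axis; the dotted line marks equal changes, orange points have a called difference between the vectors, and open blue circles are interferon-response genes. The interferon genes lie in the lower left, mostly above the dotted line, with medians of -3.07 under LacZ and -1.98 under MGT.

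Under MGT 43 of the 47 interferon genes were lower in aged cells and 0 higher. The difference from LacZ was called for 19, each with the smaller fall under MGT. Over all tested genes 10.0% were lower under MGT, and 1.68% had a called difference with the more positive change under MGT. The list summed to 883 and 949 CPM in aged MGT cells, against 3671 and 3633 CPM in adult MGT cells, so the aged sums of both vectors were close and the adult sums were not. Rsad2 measured 7.06 and 8.67 CPM in aged MGT cells and 30.1 and 25.7 CPM in adult MGT cells (-1.83, a difference of 2.64 ± 0.29 from LacZ, adjusted p = 9.4e-05). Glycolysis and hypoxia genes under MGT were lower in 16 of 32 and higher in 1, and Slc16a3 measured 7.50 and 7.10 CPM in aged MGT cells, against 52.4 and 50.9 CPM in adult MGT cells (-2.82). Myh11 measured 19.1 and 16.03 CPM in aged MGT cells, against 2.98 and 2.29 CPM in adult MGT cells (2.73), and Cyp1a1 12.2 and 14.3 CPM in aged MGT cells, against 1.12 and 0.970 CPM in adult MGT cells (3.65).

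**Figure D5:**
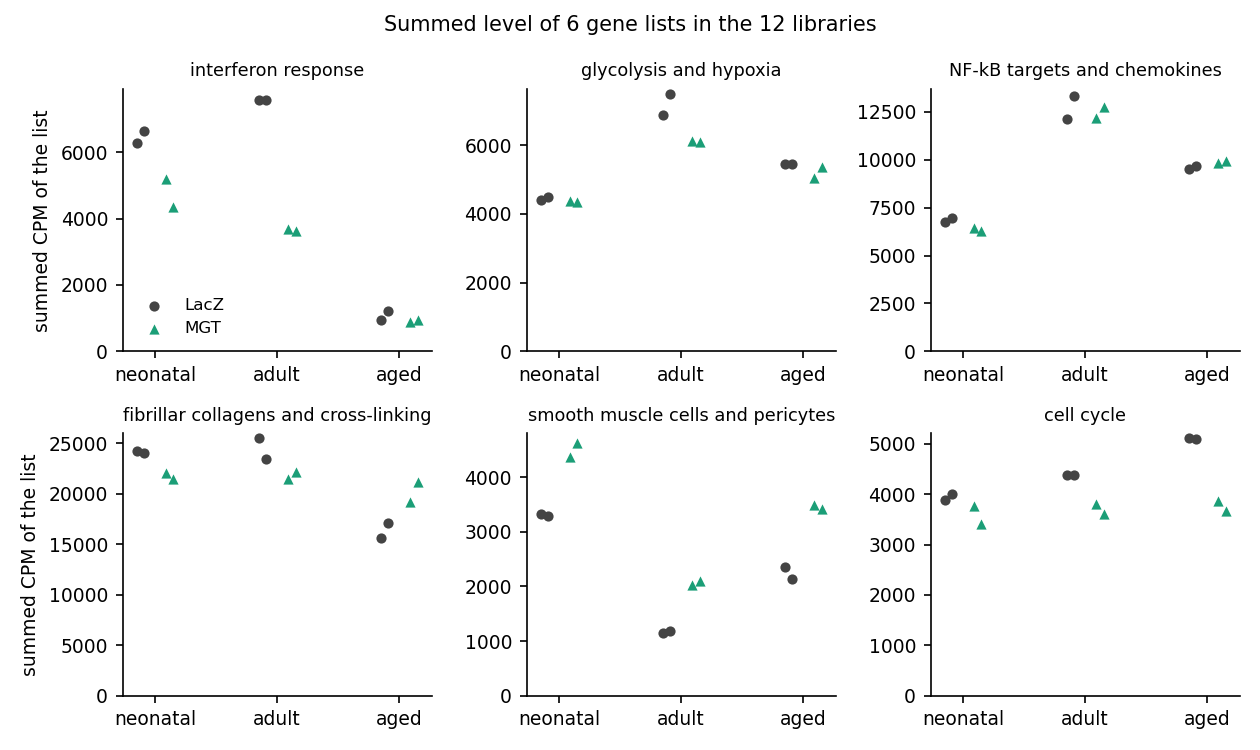
Points are the summed CPM of a list in each of 2 libraries for neonatal, adult and aged cells, with grey circles for LacZ and green triangles for MGT, on axes that start at 0. The interferon sum of aged cells lies between 883 and 1222 CPM under both vectors and that of adult cells between 3633 and 7566 CPM, while the fibrillar collagen sum of aged LacZ cells, 15590 and 17090 CPM, is the lowest of the groups.

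Other groups differed between the vectors. Over all tested genes 9.8% were higher and 10.0% lower in aged MGT cells, and 2.38% had a called difference. Cholesterol synthesis genes were higher in 13 of 21 and lower in 0 in aged MGT cells, with 11 called differences from LacZ, and a median of 0.46 under MGT, against -0.17 under LacZ. Fibrillar collagen genes were lower in 10 of 26 and higher in 7 under MGT, with 8 called differences. Cell cycle genes were higher in 6 of 54 and lower in 3 under MGT, with 0 called differences, so the lower count under MGT is not shown to be a different effect. The largest called differences were Mx1 (4.27), Lrrc17 (4.2), Pdlim3 (3.49), Ndufa4l2 (2.85) and Ggt5 (2.84) on one side, and Lhx6 (-3.14), Dkk2 (-2.24), Chrna7 (-2.11), Tnfsf11 (-1.99) and Nol4 (-1.94) on the other. The calls of Pdlim3 and Dkk2 held without any single library. Those of Mx1 and Ndufa4l2 were lost without either aged MGT library, and those of Lrrc17, Ggt5, Lhx6, Chrna7, Tnfsf11 and Nol4 were lost without any of several libraries (the difference of Lrrc17 was 2.79 without aged MGT replicate 2). Pdlim3, a Z-disc protein, measured 1.10 and 1.67 CPM in aged LacZ cells and 9.96 and 11.8 CPM in adult LacZ cells (-2.98 ± 0.28), against 36.2 and 34.3 CPM in aged MGT cells and 24.4 and 25.1 CPM in adult MGT cells (0.51).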

How the data were processed

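RNA of primary mouse cardiac fibroblasts was sequenced in 12 libraries, 2 in each of 6 groups of age and vector. The vector was read from the treatment field, since every title carries the letters MGT. Per the labels' protocols, libraries were made after ribosomal RNA depletion, although the molecule field says polyA RNA. Per the submitters' processing notes, Trimmomatic 0.36, Subread 1.5.1 with featureCounts, SAMtools and the build mm10 were used; the aligner, annotation release and strand setting were not given in the sources used here. Per the file headers, the deposited table holds a raw count and an FPKM value per gene and library for 16383 genes, and genes outside it are not analysed here. The authors' FPKM values were used only to recover library totals as count over FPKM and exon length. These totals were 14489848 to 18796715 and the table held 86.5 to 87.5% of them.

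Counts were fitted in R 4.3.3 with edgeR 4.0.16 (TMM factors on those totals, filterByExpr, quasi-likelihood test, 6 group means, 12 libraries, 6 residual degrees of freedom), and p-values were adjusted by Benjamini-Hochberg over 11940 genes. SE is the absolute log2 change over the square root of F. A count of 0 allows up to 3 counts, 0.160 to 0.207 CPM, and counting intervals are exact at 95%; both cover counting error only. On simulated counts for this comparison over 11748 genes, 85.1% of 1.5-fold changes and 100% of 2-fold changes were called. Each share rests on 67 genes. Recovery for rare transcripts, or with the wider spread and exon length trend of the adult LacZ pair, was not tested. Same-numbered LacZ adult and aged libraries did not deviate together over genes (r = -0.084). With 2 libraries a group, and an exon length trend in the adult pair, this value cannot decide whether equal numbers pair the libraries.

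Named genes are the 12 largest called changes in each direction without overlap of libraries and with a mean of at least 1 CPM in the higher group, up to 5 genes per list by adjusted p with the defining gene, fixed genes of senescence, reprogramming and matrix, and the 5 largest differences between vectors in each direction. Other named genes (interferon roles, hypoxia factors, aryl hydrocarbon receptor and Nrf2 targets, Mcm subunits, Sesn1, Col6a3 and cell markers among them) were chosen after their values were seen. Members and lists were chosen with earlier results of these data known. Promoter windows are those of RefSeq (GRCm38.p6), matched by symbol for 9427 tested genes. Alternatives were other scalings, filters, tools (limma 3.58.1 voom, DESeq2 1.42.0), the 4 libraries alone, a replicate block, a stricter threshold, each library left out and, chosen after seeing the data, a correction for exon length.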

Additional observations from a re-analysis of the deposited data

Results flagged for a closer look

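The effect of age differed between MGT and LacZ cells for 49 of the 178 named genes. The test was the interaction test of edgeR's quasi-likelihood fit, at an adjusted p below 0.05. Over all tested genes 2.38% had a called difference. Mx1, Lrrc17, Pdlim3, Ndufa4l2, Ggt5, Lhx6, Dkk2, Chrna7, Tnfsf11 and Nol4 were named for this same difference, Mx1 and Ndufa4l2 also for their fall under LacZ. Part of the 49 was therefore set by the choice of genes, and the count cannot be weighed against the share over all genes. Each value is the log2 change of aged over adult cells under MGT minus that under LacZ, so a positive value for a gene lower in aged LacZ cells is a smaller fall under MGT, or a rise. Among interferon and antigen presentation genes, the difference was called for Isg15 (1.16), Rsad2 (2.64), Ifit1 (1.27), Mx1 (4.27), Cxcl10 (2.61), Tlr3 (1.25), Adar (0.64), Tap1 (1.37), H2-Q4 (1.09), Tapbp (0.88) and C1ra (0.62). Among hypoxia, acute-phase and detoxification genes, the difference was called for Ndufa4l2 (2.85), Epas1 (0.95), Egln1 (0.69), Hp (2.26), Saa3 (1.43), Gpx3 (0.94), Ahrr (-1.46) and Ptgs2 (-1.28). Among matrix and protease genes, the difference was called for Col3a1 (1.00), Col14a1 (1.69), Loxl2 (0.91), Eln (1.91), Mfap4 (1.77), Postn (0.80), Tnc (-0.70), Agrn (0.97), Mmp3 (0.81) and Mmp2 (0.84). Among fibroblast, senescence and growth factor genes, the difference was called for Itgb5 (0.77), Medag (0.83), Thy1 (-0.51), Plaur (-0.77), Plk2 (-0.58), Gas6 (1.00), Igf1 (0.80), Dkk3 (1.18), Dkk2 (-2.24), Tgfbi (1.54) and Gdf6 (0.80). Among lysosome and cholesterol genes, the difference was called for Grn (0.59) and Insig1 (1.02). Among the largest differences outside these groups, the difference was called for Lrrc17 (4.2), Pdlim3 (3.49), Ggt5 (2.84), Lhx6 (-3.14), Chrna7 (-2.11), Tnfsf11 (-1.99) and Nol4 (-1.94). Many of these calls depend on single libraries, as given with their count in the report, and no cause was tested.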

How the results depend on the processing

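The count of 3232 genes called between aged and adult LacZ cells was 1897 with the spread of the 4 libraries alone, 2037 at an adjusted p below 0.01 and 1874 to 3831 with single libraries left out. Other scalings, filters and tools gave 2952 to 3463, and correcting exon length gave 3634. Under MGT the count of 2369 was 1330 at the stricter threshold and 1076 to 1938 with single libraries left out. The count of 284 differences between the vectors was 539 with no filter on low counts, 129 at the stricter threshold, 474 with exon length corrected and 110 to 815 with single libraries left out. With the replicate block the counts were 3182, 2345 and 264. Whether the replicate numbers pair the libraries was not decided. Of 2669 combinations of 178 named genes and alternatives, 2619 kept the direction and side of the threshold, 33 lost and 10 gained a call, and 7 changed sign. The sign changes were those of genes not called: Mef2c, which ran from -0.24 to 0.13 with single libraries left out, Cdkn2a, from -0.20 to 0.14 (and 0.04 with exon length corrected), and Ahr, from -0.14 to 0.32. The cause was not tested. Lhx6, with 36 counts in aged and 11 in adult LacZ cells, lost its LacZ call without each of the 4 LacZ libraries in turn. With the spread of the 4 libraries alone, fewer members were called higher among matrix proteases (3), IGF axis genes (2), NF-kB targets (1), adipocyte genes (2), growth factors (10) and epicardial markers (0), and fewer lower among homeobox (3), cholesterol (2) and unfolded protein response genes (4). With no filter on low counts, 4 endothelial markers were lower.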
